A study of Mus musculus with 6 samples.

Results

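The pyruvate dehydrogenase kinases and phosphatases are the enzymes that switch the pyruvate dehydrogenase complex (PDC) off and on. Their 7 genes, the kinases Pdk1, Pdk2, Pdk3 and Pdk4, the catalytic phosphatases Pdp1 and Pdp2, and the phosphatase regulatory subunit Pdpr, were taken by symbol from the 24848 genes listed per library, and all 7 were found and expressed highly enough to be tested. They were compared between brains of 3 E4f1 knockout (KO) and 3 wild type (WT) mouse embryos at E14.5, by RNA-seq of mRNA. This stage lies in the middle of embryonic brain neurogenesis. The series asks how the zinc finger transcription factor E4F1 ties pyruvate metabolism to the tRNA-modifying Elongator complex in the developing brain. The labels name neither the deleted exons, nor the cells that lost the gene, nor the strain, sex or litter of the embryos, and nothing says that same-numbered brains of the KO and WT groups belong together.

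The PDC converts pyruvate to acetyl-CoA in mitochondria and so joins glycolysis to the tricarboxylic acid cycle. The kinases phosphorylate serines of its E1 alpha subunit and stop the reaction, and the phosphatases remove these phosphates and restore it. The kinases sit on the lipoyl domains of the E2 subunit, the product of Dlat. In the bovine enzyme, the regulatory subunit is known to lower the sensitivity of the catalytic phosphatase to magnesium. Pdpr and Dlat have both been described as E4F1 targets in other mouse cells, so their direction here is not independent of that knowledge.

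E4f1 itself was at 7.12, 7.01 and 6.92 CPM (counts scaled to a common library total) in KO brains, against 20.7, 21.6 and 21.5 CPM in WT brains (log2 fold change -1.60 ± 0.08 (SE), edgeR adjusted p = 0.00142). Library totals lay between 50186590 and 69068011 expected counts in KO and between 42113465 and 74064707 in WT. The midbrain markers En1, En2 and Pax5 summed to 0.38 to 1.60 TPM (counts scaled to transcript length and a common total) in KO and 3.45 to 70.26 TPM in WT. Summed levels of 5 neuron markers were 3281 to 4236 TPM in KO and 4922 to 5641 TPM in WT, and those of 5 radial glia markers 1233 to 1366 TPM in KO and 1673 to 1844 TPM in WT. Of the radial glia markers, Fabp7 was at 843 to 977 TPM in KO and 1249 to 1510 TPM in WT, and the 4 others each overlapped between the groups. Summed levels of 4 endothelium markers were 213 to 296 TPM in KO and 158 to 199 TPM in WT, and those of 5 microglia markers 76.3 to 99.7 TPM in KO and 41.9 to 65.1 TPM in WT. Among the neuron markers, Rbfox3 overlapped between the groups (log2 fold change -0.003), and the 4 others did not. The fold change was above 0 for 0 of 3 midbrain, 0 of 5 neuron, 2 of 5 radial glia, 4 of 4 endothelium and 5 of 5 microglia markers. Of the 22 genes of these 5 lists, Cx3cr1 alone passed the test (higher in KO), and none was at 0 in any library.

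Among the 7 genes, Pdpr fell in KO brains and no gene rose at an adjusted p below 0.05 (edgeR). That is 1 of 7 lower, against 0.492% lower and 0.511% higher among all 15848 tested genes. The 6 others did not pass this test. Pdk3 had the next largest difference relative to its error, and Pdk1, Pdk2, Pdp1 and Pdp2 each had a fold between 0.958 and 1.05 (fitted fold, KO over WT). As a description, the median log2 fold change was 0.20 over the 4 kinases and -0.06 over the 3 phosphatase genes, beside -0.0008 over all tested genes.

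The sequence before Pdpr is shown because Pdpr is the member that fell, and that before Pdk3 for contrast, as the kinase with the largest difference relative to its error. Each runs from 250 bases before to 50 bases after an annotated start (RefSeq, GRCm38.p6). Capitals mark matches to TGACGT on either strand. This is the core of the sites at which E4F was first described on a viral promoter, and it is shared by factors of the ATF and CREB family.
Pdpr, chr8:111094495-111094794, plus strand: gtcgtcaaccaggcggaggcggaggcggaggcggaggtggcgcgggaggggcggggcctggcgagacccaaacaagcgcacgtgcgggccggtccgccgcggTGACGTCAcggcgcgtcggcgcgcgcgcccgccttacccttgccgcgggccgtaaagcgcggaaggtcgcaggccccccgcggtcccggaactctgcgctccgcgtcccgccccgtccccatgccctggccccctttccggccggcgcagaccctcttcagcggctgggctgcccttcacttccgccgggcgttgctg
Pdk3, chrX:93832101-93832400, minus strand: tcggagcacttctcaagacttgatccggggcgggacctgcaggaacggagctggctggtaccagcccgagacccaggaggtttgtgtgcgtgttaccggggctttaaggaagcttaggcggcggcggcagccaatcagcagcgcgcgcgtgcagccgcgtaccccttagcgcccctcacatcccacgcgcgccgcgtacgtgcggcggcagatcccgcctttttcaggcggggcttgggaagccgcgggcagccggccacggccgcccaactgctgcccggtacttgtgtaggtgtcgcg
The Pdpr window holds the palindrome TGACGTCA, which is a TGACGT match on each strand with 4 shared bases, and which begins at 111094597. That is 148 bases before the start on which the window is set, 111094745, and 12 bases before the 5′ bound of the gene in the RefSeq gene table, 111094609, so the annotated starts differ by 136 bases. The promoter table has windows for 6 of the 7 members, and that of Pdp1 was not examined. The windows of the 5 others (Pdk1 and Pdk2 with 2 starts each, Pdk3, Pdk4 and Pdp2) and that of Dlat hold no TGACGT. Of all 32851 windows of this length, 7.51% hold TGACGT, 1.79% hold TGACGTCA and 0.499% hold TGACGTAA, which no member window holds. GC content was 76.7% in the Pdpr window and 68.0% in the Pdk3 window.

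At the level of single libraries, Pdpr (chromosome 8, gene bounds 111094609 to 111139781, GRCm38, RefSeq NM_198308 in the tables) was at 11.66, 11.11 and 11.40 TPM in KO brains, against 19.50, 19.97 and 21.13 TPM in WT brains. Every KO library lay below every WT library, as was so, in either direction, for 27.6% of all tested genes by CPM. These levels rested on 892, 685 and 641 expected counts in KO and 1547, 872 and 1503 in WT. The fitted fold was 0.573 (95% interval 0.501 to 0.656), or -0.80 ± 0.08 (SE) in log2 terms with 3 brains a group, at an edgeR adjusted p of 0.0114. Its unadjusted p ranked 54 among the 15848 genes. The call ended in 4 of the 6 fits that left out 1 library, with an edgeR adjusted p of 0.112 without KO 1, 0.0571 without KO 2, 0.0604 without KO 3 and 0.0787 without WT 3, while the log2 fold change stayed between -0.83 and -0.77 in all 6. It ended too with replicates 1 and 2 of each group alone (-0.77 ± 0.12, edgeR adjusted p = 0.276). The same was so with a midbrain score (-0.93 ± 0.15, edgeR adjusted p = 0.470) or the log2 CPM of Xist (-0.79 ± 0.10, 0.0570) as covariate. The midbrain score is built from the midbrain markers named above. It was -3.05, -1.31 and -1.97 in KO and 4.12, 3.18 and -0.191 in WT, without overlap. The fit with this score called 0 genes, and E4f1 lost its call too (edgeR adjusted p = 0.219). A call lost in that fit therefore does not separate midbrain content from genotype.

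The exons of Pdpr share 169 bases with 9430091E24Rik, a noncoding gene on the other strand, and the strand setting of the counting is not given in the sources used here. That gene was at 1.67, 1.16 and 1.50 TPM in KO and 2.89, 2.40 and 2.42 TPM in WT, with 62 to 111 expected counts in KO and 93 to 200 in WT (log2 fold change -0.81 ± 0.22, edgeR adjusted p = 0.138). Reads from the shared bases cannot be assigned without the strand setting. In brain tissue of mixed cells, fewer cells that use a gene and less of its RNA per cell cannot be told apart. The part of the marker differences given above in the Pdpr result was not tested.

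**Figure D1:**
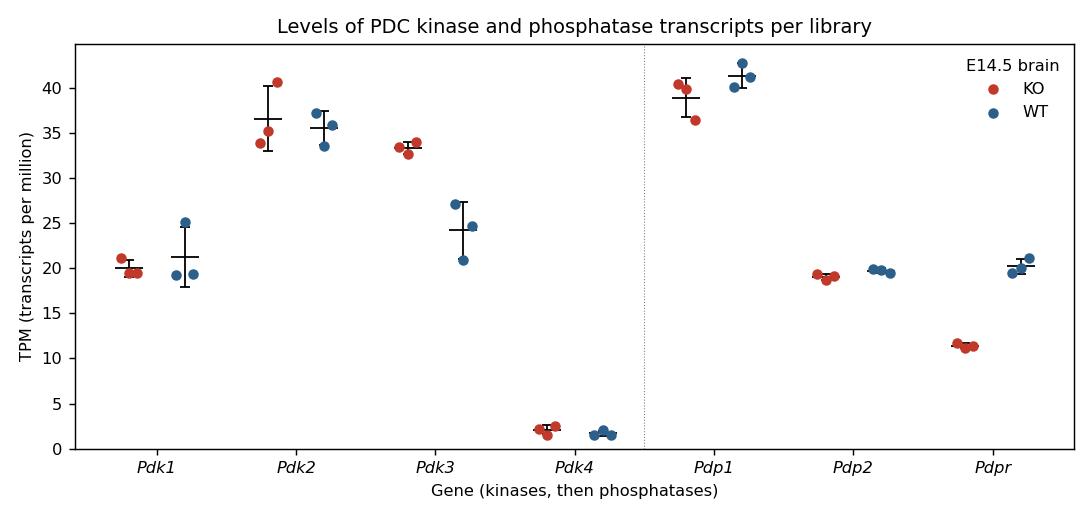
Levels of the 7 genes in TPM, 1 point per library, KO left of WT, with black bars for the mean and SD (n = 3 each). Pdpr lies between 11.11 and 11.66 TPM in KO, below the 19.50 to 21.13 TPM of WT, and Pdk3 lies between 32.65 and 33.92 TPM in KO, above the 20.86 to 27.10 TPM of WT.

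Neither catalytic phosphatase gene passed the test. Pdp1, the calcium-stimulated form of the phosphatase, was at 40.40, 39.87 and 36.40 TPM in KO and at 40.07, 42.76 and 41.15 TPM in WT, so the groups overlapped. Its fitted fold was 0.958 (95% interval 0.863 to 1.06, log2 fold change -0.06 ± 0.06, edgeR adjusted p = 0.606). Pdp2, the form that calcium does not stimulate, was at 19.32, 18.65 and 19.18 TPM in KO and at 19.89, 19.84 and 19.44 TPM in WT. All KO values of Pdp2 lay below all WT values in TPM by a narrow margin, while its CPM values overlapped. Its fitted fold was 0.982 (95% interval 0.882 to 1.09, edgeR adjusted p = 0.850). The intervals of Pdp1 and Pdp2 leave out the fold of Pdpr, 0.573. Neither p shows that their levels were equal.

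Pdp1 made up 67.1% ± 1.41 of the summed TPM of Pdp1 and Pdp2 in KO and 67.7% ± 0.766 in WT (SD, n = 3 each), and the groups overlapped. Pdpr stood at 0.195, 0.190 and 0.205 of that sum in KO, against 0.325, 0.319 and 0.349 in WT. There was thus less regulatory subunit transcript per catalytic subunit transcript in every KO library. Of the Pdp1 gene the files list 5 RefSeq transcripts, and its mean transcript length, weighted by transcript level, was between 4181 and 4189 bases in all 6 libraries. The gene 1700123M08Rik starts 113 bases from Pdp1 on the other strand without sharing exons.

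Among the kinases, Pdk3 (chromosome X, 93764616 to 93832150, NM_145630) had the largest difference relative to its error. In the human enzyme, this kinase is strongly activated by the inner lipoyl domain of E2. Pdk3 was at 33.45, 32.65 and 33.92 TPM in KO brains, against 27.10, 20.86 and 24.68 TPM in WT brains. Every KO value lay above every WT value, and the WT values were the more spread (SD 0.642 TPM in KO and 3.15 TPM in WT). By CPM, the groups did not overlap, in either direction, for 27.6% of all tested genes. The fitted fold was 1.40 (95% interval 1.16 to 1.69, log2 fold change 0.48 ± 0.11), and it did not pass after adjustment (edgeR adjusted p = 0.109), its unadjusted p ranking 625 of 15848. DESeq2 called it higher (0.48 ± 0.14, DESeq2 adjusted p = 0.00913), as it did 4.82% of all genes it tested. DESeq2 was alone in this among the 21 alternatives, and all 21 gave a positive value, between 0.39 and 0.57.

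Because Pdk3 is X-linked, its levels were read beside Xist, the RNA that coats the inactive X chromosome of females, and Ddx3y, a Y-linked gene. Xist was at 2638 and 2442 CPM in KO 1 and KO 3 and at 2477 CPM in WT 1, and Ddx3y had no counts in these 3 libraries. Ddx3y was at 40.0 CPM in KO 2 and at 38.0 and 38.7 CPM in WT 2 and WT 3. Among the libraries with high Xist, Pdk3 was at 33.45 and 33.92 TPM in KO and 27.10 TPM in WT. Among those with Ddx3y, it was at 32.65 TPM in KO and at 20.86 and 24.68 TPM in WT. The KO values lay above the WT values in both sets. Since every KO value lay above every WT value, any such split gives this order, and it adds no evidence. The sets hold 3 libraries each, and high Xist was more frequent in KO than in WT, so they allow no test of their own. With the log2 CPM of Xist as a covariate, Pdk3 had a log2 fold change of 0.39 ± 0.11 (edgeR adjusted p = 0.257), against 0.48 ± 0.11 without it. The part of sex in the Pdk3 difference was not tested.

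**Figure D2:**
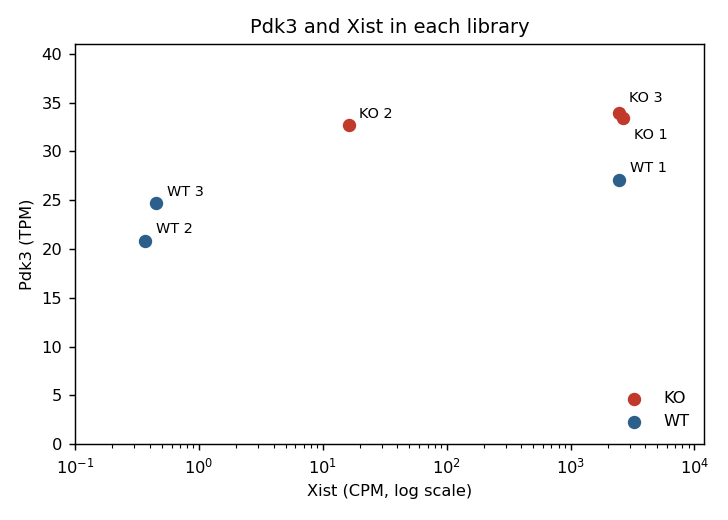
Pdk3 level (TPM, linear axis) against Xist level (CPM, log axis), 1 labelled point per library, KO in red and WT in blue. The KO libraries lie between 32.65 and 33.92 TPM, above the WT libraries, which lie between 20.86 and 27.10 TPM.

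Pdk1, a kinase gene known to be induced by the hypoxia factor HIF-1, was at 21.11, 19.44 and 19.45 TPM in KO and at 19.25, 25.09 and 19.33 TPM in WT. The groups overlapped, and WT 2 was the highest library. The log2 fold change was -0.06 ± 0.12 (edgeR adjusted p = 0.802) and turned to 0.073 without WT 2. Pdk1 here is the mitochondrial kinase on chromosome 2 (71873215 to 71903858), whose 2 listed transcripts match that RefSeq gene, and not Pdpk1, which shares the abbreviation.

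Pdk2, the most widely expressed kinase gene of the family in adult tissues, was at 33.82, 35.20 and 40.65 TPM in KO and at 37.19, 33.51 and 35.82 TPM in WT, with KO 3 the highest. The fitted fold was 1.05 (95% interval 0.884 to 1.24, edgeR adjusted p = 0.742). Pdk4, which fasting induces in muscle and liver through PPAR and FOXO factors, was at 2.20, 1.56 and 2.52 TPM in KO and at 1.53, 2.07 and 1.51 TPM in WT. These levels rested on 116 to 203 expected counts in KO and 109 to 146 in WT. The fitted fold of Pdk4 was 1.26, and its 95% interval, 0.822 to 1.92, was the widest of the 7 (edgeR adjusted p = 0.501). That interval holds both lower and higher levels in KO, so the p does not show that the levels of Pdk4 were equal.

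The order of levels per transcript length shows which forms these brains held. By mean TPM in KO, the order was Pdp1 (38.9), Pdk2 (36.6), Pdk3 (33.3), Pdk1 (20.0), Pdp2 (19.1), Pdpr (11.4) and Pdk4 (2.09). In KO, Pdp1 and Pdk2 overlapped, as did Pdk2 and Pdk3, and the later neighbours in this order did not. By mean TPM in WT, it was Pdp1 (41.3), Pdk2 (35.5), Pdk3 (24.2), Pdk1 (21.2), Pdpr (20.2), Pdp2 (19.7) and Pdk4 (1.70). In WT, Pdk3 overlapped with Pdk1, Pdk1 with Pdpr, and Pdpr with Pdp2, while the other neighbours did not overlap. Pdk3 thus overlapped with Pdk2 in KO and with Pdk1 in WT. Among all tested genes, the mean TPM of Pdk4 lay at the percentile 16.4 in KO and 14.8 in WT, that of Pdpr at 36.1 in KO and 47.8 in WT, and that of Pdk3 at 61.2 in KO and 52.4 in WT.

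Pdk3 held a larger share of the kinase transcripts in every KO library than in any WT library. This share of the summed TPM of the 4 kinases was 36.9%, 36.7% and 35.1% in KO, against 31.9%, 25.6% and 30.3% in WT, with no overlap. The mean shares of Pdk3 were 36.3% ± 0.987 in KO and 29.3% ± 3.27 in WT (SD, n = 3 each). Pdk2 held 39.7% ± 2.39 in KO and 43.0% ± 1.61 in WT, Pdk1 21.8% ± 1.58 in KO and 25.7% ± 4.41 in WT, and Pdk4 2.26% ± 0.450 in KO and 2.06% ± 0.412 in WT, each with overlap. The ratio of Pdk3 to Pdk2 in TPM was 0.989, 0.928 and 0.834 in KO, against 0.729, 0.623 and 0.689 in WT. These shares are described without a test, since 3 against 3 libraries cannot go below an exact permutation p of 0.10.

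**Figure D3:**
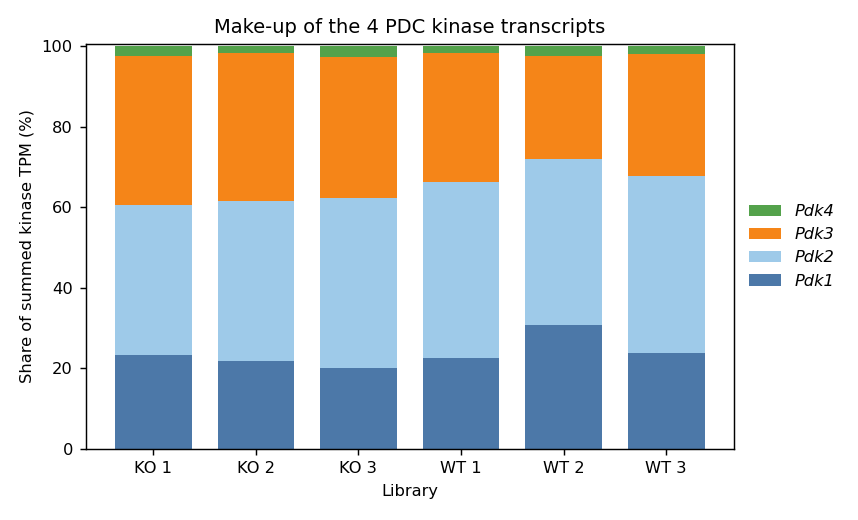
Share of each kinase in the summed TPM of Pdk1, Pdk2, Pdk3 and Pdk4 (percent, stacked to 100), 1 bar per library, KO left of WT. The Pdk3 segment spans 35.1% to 36.9% in KO and 25.6% to 31.9% in WT.

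Summed over the 4 genes, the kinases reached 90.6, 88.9 and 96.5 TPM in KO and 85.1, 81.5 and 81.3 TPM in WT. The 2 catalytic phosphatases summed to 59.7, 58.5 and 55.6 TPM in KO and to 60.0, 62.6 and 60.6 TPM in WT. The ratio of these sums was 1.52, 1.52 and 1.74 in KO, against 1.42, 1.30 and 1.34 in WT, so every KO library was the higher. The mean kinase sum was 92.0 TPM in KO and 82.6 TPM in WT, and that of Pdk3 alone 33.3 and 24.2 TPM. Levels of Pdk1, Pdk2 and Pdk4 each overlapped between the groups. The kinase sum thus largely repeats the Pdk3 difference, which edgeR did not call, and is not a separate result. The ratio also takes in the phosphatase sum, which was lower in every KO library (mean 57.9 TPM in KO and 61 TPM in WT). Neither phosphatase gene was called, so the ratio is not a separate result either. It is a ratio of transcript levels, and enzyme amounts and phosphorylation were not measured.

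The enzyme that the members act on was read from its subunit genes. Of the 5 PDC subunit genes, Dlat fell and the others did not pass the test. Dlat was at 3.57, 4.93 and 4.38 TPM in KO, against 29.91, 31.34 and 28.73 TPM in WT (log2 fold change -2.78 ± 0.14, edgeR adjusted p = 0.00142). It kept its call in all 6 fits that left out 1 library. The call of Dlat ended with replicates 1 and 2 alone (edgeR adjusted p = 0.0638) and with the midbrain score as covariate (0.219). That of E4f1 ended there too (0.0721 and 0.219), and these 2 fits called 0 genes in all. Pdha1, the E1 alpha subunit that the kinases phosphorylate, had a fitted fold of 1.05 (95% interval 0.928 to 1.18), Pdhb of 0.936, Pdhx of 0.920 and Dld of 0.903. Summed kinase TPM per TPM of Dlat was 25.4, 18.0 and 22.0 in KO, against 2.84, 2.60 and 2.83 in WT. Per TPM of Pdha1 the summed kinases stood at 0.805, 0.820 and 0.832 in KO and 0.832, 0.701 and 0.745 in WT, with overlap.

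The related complex for branched-chain oxoacids has its own kinase and phosphatase. Bckdk, the kinase, was at 38.2 ± 1.93 TPM in KO and 34.3 ± 3.41 TPM in WT (log2 fold change 0.18 ± 0.10, edgeR adjusted p = 0.348). Ppm1k, the phosphatase, was at 11.54, 9.86 and 11.20 TPM in KO, against 8.35, 8.35 and 9.31 TPM in WT. These values did not overlap, as was so by CPM, in either direction, for 27.6% of all tested genes. It had a log2 fold change of 0.35 ± 0.10 that did not pass (edgeR adjusted p = 0.142), while DESeq2 called it higher (adjusted p = 0.0484).

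**Figure D4:**
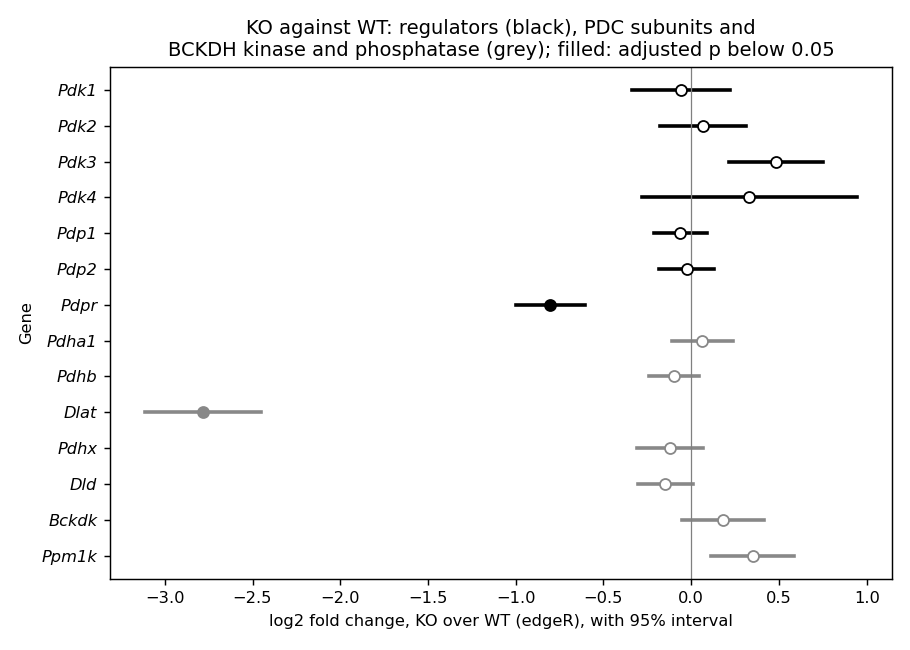
Log2 fold change of KO over WT from edgeR with its 95% interval, for the 7 regulators in black and for PDC subunits and the branched-chain kinase and phosphatase in grey. Filled points passed an adjusted p of 0.05, which only Pdpr (-0.80) and Dlat (-2.78) did.

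For the lists that follow, 19.6% of all tested genes had an unadjusted edgeR p below 0.05 and 8.89% were called by DESeq2. Among 8 genes of pyruvate and lactate transport and use, 0 were called by edgeR (3 at an unadjusted p below 0.05, 2 by DESeq2), with a median log2 fold change of -0.12. The smallest p was that of Mpc1, which carries pyruvate into mitochondria together with Mpc2, at 32.8 ± 0.900 TPM in KO and 54.5 ± 7.05 TPM in WT (-0.71 ± 0.12, edgeR adjusted p = 0.0611). Among 7 genes of mitochondrial calcium uptake, which bears on Pdp1, 0 were called by edgeR (1 at an unadjusted p below 0.05, 1 by DESeq2), with a median of -0.05.

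Lists of genes known to respond to the same factors as Pdk1 and Pdk4 were read beside the same shares of all genes. Among 18 tested HIF targets, edgeR called Vegfa, which drives vessel growth, higher and none lower, with a median of -0.07. Of the 18, 4 had an unadjusted edgeR p below 0.05 and 4 were called by DESeq2. Among these DESeq2 calls, Vegfa, Slc2a1 and Hk2 were higher and Pfkfb3 was lower (-0.617 ± 0.135, DESeq2 adjusted p = 0.000267). Vegfa was at 149.98, 127.12 and 105.24 TPM in KO, against 70.07, 71.35 and 64.86 TPM in WT (0.92 ± 0.12, edgeR adjusted p = 0.0350). Among 14 tested PPAR and FOXO targets, 0 were called by edgeR (1 at an unadjusted p below 0.05, 0 by DESeq2), with a median of 0.16. The smallest p was that of Acot2, a mitochondrial acyl-CoA thioesterase (0.39 ± 0.16, edgeR adjusted p = 0.242). Among 13 transcription factors that act on these kinase genes, 0 were called by edgeR (3 at an unadjusted p below 0.05, 2 by DESeq2), with a median of 0.15. The smallest p was that of Epas1, the gene of HIF-2 alpha, at 36.6 ± 3.41 TPM in KO and 24.5 ± 2.73 TPM in WT (0.61 ± 0.11, edgeR adjusted p = 0.0684). Vegfa kept its call in only 1 of the 6 fits that left out 1 library, the one without KO 3 (edgeR adjusted p = 0.0211), and had an edgeR adjusted p of 0.0882 to 0.155 in the 5 others. Its call ended too with replicates 1 and 2 of each group alone (edgeR adjusted p = 0.153), with the midbrain score (0.981) or Xist (0.141) as covariate, and with limma on log2(TPM + 1) without a filter on low values (limma adjusted p = 0.0571). Endothelial cells are a known site of Epas1 expression, and endothelium markers were higher in summed TPM in KO, as given above. The part of these cells in the Epas1 and Vegfa differences was not tested.

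The genes whose pattern over the 6 libraries was most like that of Pdpr were, outside the lists used here, Dmac1, Atg14 and Mllt6, with Pearson's r of 0.998, 0.996 and 0.996 between log2 CPM values. The log2 fold change was -0.49 for Dmac1 (edgeR adjusted p = 0.0472), -0.25 for Atg14 (0.135) and -0.36 for Mllt6 (0.0489). Dmac1 is an assembly factor of respiratory complex I and Atg14 a subunit of the autophagy kinase complex. With 2 groups of 3 libraries, such a value mostly reflects the group difference, and it is given as a description.

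Over the 21 alternatives the log2 fold change of Pdpr lay between -0.93 and -0.74, and it was called in 13 of them. That of Pdk3 lay between 0.39 and 0.57, and it was called in 1.

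**Figure D5:**
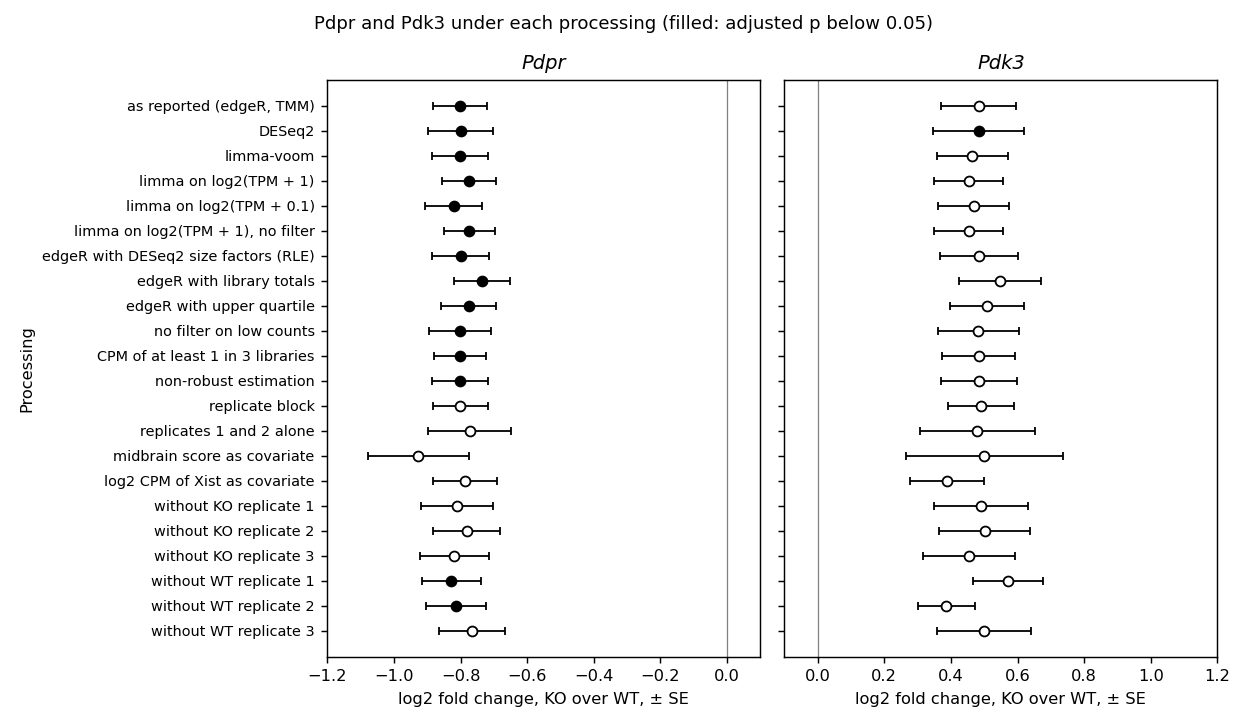
Log2 fold change of Pdpr (left) and Pdk3 (right), KO over WT, with its SE, as reported and under 21 other processings; filled points have an adjusted p below 0.05. Pdpr stays between -0.93 and -0.74 and Pdk3 between 0.39 and 0.57.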

How the data were processed

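RNA was extracted with Trizol from flash-frozen E14.5 brains and made into stranded mRNA libraries with a KAPA kit, per the labels' protocols. Per the submitters' processing notes, the tools were RSEM (version 1.2.28) and STAR (version 2.5.3a) beside Trimmomatic and FastQC, on GRCm38 (mm10). The deposited expected counts are RSEM estimates per gene, per the file headers, and 98.9% to 99.0% of them in each library were whole to within 0.005. The deposited TPM values are scaled to transcript length and to a fixed total by the authors, and keep no depth. Gene and effective lengths, also in the deposited tables, were used to describe Pdp1 only.

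Expected counts were rounded and tested with edgeR (version 4.0.16): filterByExpr, TMM scaling, and the robust quasi-likelihood F test, two-sided, on all 15848 tested genes, with Benjamini-Hochberg adjustment over all of them and a threshold of 0.05. The SE is that which matches the F statistic. TPM served for levels and shares. Alternatives used DESeq2 (version 1.42.0) and limma (version 3.58.1), including log2(TPM + 1) and log2(TPM + 0.1). The test was checked on simulated counts. Named genes are E4f1, the members, the PDC subunits, the branched-chain pair, called members or the smallest p of each other list, and the 3 genes most like each called member. The values of 1 gene within this rule are not reported here. The genes 9430091E24Rik and 1700123M08Rik, named for their position, and Xist and Ddx3y were added after the data were seen. So were Slc2a1, Hk2 and Pfkfb3, named for the direction of their DESeq2 calls. The members, lists and tests were chosen with earlier results of these data known. Libraries of a group differed by a chi-square per degree of freedom of 43.5 to 168, so each counts as 1 sample. The p-values set the group difference against the spread between these samples and take the samples as independent. Nothing says that the brains came from separate litters, so this independence is not known.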

Additional observations from a re-analysis of the deposited data

How the results depend on the processing

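In all, edgeR called 159 genes. Counts of calls moved by over 1.5 times with DESeq2 (1437), limma on log2(TPM + 1) (245) and on log2(TPM + 0.1) (248), the replicate block (66), the log2 CPM of Xist as covariate (65, chosen after seeing the data), the midbrain score as covariate (0, with 753 at an unadjusted p below 0.05) and replicates 1 and 2 alone (0, with 1546); the cause was not tested. Leaving out each library in turn gave 36 to 82. The call of Pdpr became 0 lower members with the replicate block, with replicates 1 and 2 alone and with either covariate, and 0 to 1 when libraries were left out. DESeq2 called 1 member higher, Pdk3. Over the pathway lists, edgeR called 1 gene higher and 1 lower, DESeq2 8 and 3; without a library the higher count was 0 to 1. Scaling by library totals turned 3 members that were never called, Pdk1 to 0.0060, Pdp1 to 0.0039 and Pdp2 to 0.039 (log2 fold change). Pdk1 also turned to 0.017 with the midbrain score and 0.0050 with Xist, and Pdk2 to -0.017 with replicates 1 and 2 alone. Without a library, Pdk1 lay between -0.126 and 0.073 (positive without WT 2) and Pdk2 between -0.034 (without KO 3) and 0.128.

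Same-numbered KO and WT libraries had correlations of their deviations from the group means of 0.121, 0.173 and 0.016, so the numbers were not taken to pair the brains, and in 1 of 6 libraries (WT 3) the best match had another number. With the replicate block, Pdpr was at -0.80 ± 0.08 (log2, edgeR adjusted p = 0.0559), Pdk3 at 0.49 ± 0.10 (0.101) and Vegfa at 0.91 ± 0.09 (0.0511), so that the calls of Pdpr and Vegfa ended. The 3 brains per group and, for Pdk4, 109 to 203 expected counts limit what differences could be seen.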

Other observations

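Xist was at 16.2 CPM in KO 2, the KO library that also held Ddx3y, against 0.365 and 0.451 CPM in WT 2 and WT 3, the WT libraries with Ddx3y. Summed TPM of the 5 skeletal muscle markers was 1.65 to 23.76 in KO and 0.70 to 2.85 in WT, in tissue labelled as brain. The marker sums of erythroid cells (3436 to 4957 TPM in KO, 1548 to 4533 in WT), meninges (175 to 1727 in KO, 229 to 856 in WT) and choroid plexus (396 to 873 in KO, 754 to 942 in WT) overlapped between the groups. Myh3, an embryonic myosin, was at 0.32, 3.13 and 5.08 TPM in KO and 0.33, 0.68 and 0.40 TPM in WT. Adult muscle is a known site of Pdk4 expression, and Pdk4 was at 2.20, 1.56 and 2.52 TPM in the same KO libraries and at 1.53, 2.07 and 1.51 TPM in the WT libraries. The part of these cells in any member's level was not tested.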
